A study of Homo sapiens with 6 samples.

Results

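The 10 genes described here encode enzymes that free fatty acids from membrane phospholipids (PLA2G2A, PLA2G16, PLA2G4A), enzymes that turn arachidonic acid into prostaglandins (PTGS1, PTGS2, PTGES, PTGES2), the enzyme that inactivates prostaglandins (HPGD), a prostaglandin receptor (PTGER4) and a lipoxygenase (ALOX15). They were taken by symbol from the 58735 gene rows of the deposited count table, in which PLA2G16 is the symbol of the gene now called PLAAT3. All 10 were found. The genes were chosen by the measured difference between the groups in these same libraries, known from an earlier look at the table, so that difference is described below for each of them without a test. The data are RNA-seq gene counts from VCaP, a human prostate cancer cell line with the TMPRSS2-ERG fusion, and the study asked which genes respond to the loss of NEDD9, a scaffold protein of focal adhesions. Per the labels, 3 libraries came from VCaP cells stably infected with an shRNA (a short hairpin RNA that silences a gene) against NEDD9, called shNEDD9, and 3 from cells with a non-targeting control shRNA, called shNTC. Both kinds of cell grew in DMEM with 10% FBS. The design text calls the libraries biological triplicates. How many hairpin sequences were used, and whether each line was a pool or 1 clone, is not given in the sources used here.

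Arachidonic acid is held in the membrane as a phospholipid ester and is released by phospholipases A2, of which some are secreted, some are cytosolic and some act on the lipids of organelles. The cyclooxygenases PTGS1 and PTGS2 convert it to an unstable endoperoxide, and terminal synthases such as PTGES make prostaglandin E from that. Prostaglandin E acts on G protein-coupled receptors, PTGER4 among them, and is inactivated by oxidation through HPGD. PTGS1 is regarded as the constitutive and PTGS2 as the inducible cyclooxygenase, lipoxygenases such as ALOX15 compete for the same fatty acid, and PLA2G2A is known as a secreted phospholipase of Paneth cells and of prostate epithelium.

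The 6 libraries held 3217276 to 9902002 counts each. How far the triplicates were separate cultures is not described, so a p-value reflects their spread alone, technical or not. A level is given in CPM (counts per 1000000 counts of the library, with its total adjusted by a TMM factor). NEDD9 stood at 362, 339 and 365 CPM in shNTC and at 137, 138 and 136 CPM in shNEDD9. The groups were thus well apart for the silenced gene. All 12 VCaP and luminal prostate markers, KLK3 among them, were present in both groups, and 7 of them were called lower and 3 higher, from -1.68 for FOLH1 to 1.75 for KLK3 on the log2 scale. Of 14 leukocyte and mast cell markers 7 were at 0 counts in every library, including CD3E, CD68 and TPSAB1, and the summed level of the list was 19.9 to 27.3 CPM in shNTC and 6.38 to 7.26 CPM in shNEDD9, with LYZ (mean 16.8 CPM) the largest part in shNTC and CD14 (mean 4.69 CPM) in shNEDD9. Of 14 stromal and endothelial markers 3 (FAP, DES and CDH5) were at 0 counts, and the list summed to 28.6 to 37.7 CPM in shNTC and 50.2 to 58.5 CPM in shNEDD9. The higher sum lay in LUM (means of 19.2 and 45.2 CPM), while COL1A1 was lower (7.23 and 4.63 CPM). Among 8 Paneth and intestinal secretory markers the defensin genes DEFA5 and DEFA6 and SPINK4 were at 0 counts, while the list summed to 8775 to 9199 CPM in shNTC and 663 to 682 CPM in shNEDD9, most of it REG4 in both groups (8820 and 565 CPM). The part of these markers in the differences below was not tested.

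Of the 10 genes, 8 had enough counts to be tested. In shNEDD9 4 of them (PLA2G2A, PLA2G16, HPGD and PTGER4) were lower and 2 (PTGS1 and PTGES2) were higher by the call rule used for all genes (adjusted p under 0.05), and PTGES and ALOX15 were not called. Since this difference chose the genes, these counts describe them and nothing is read from them. Of all 13958 genes tested, 71.4% were called, 35.5% as higher and 35.9% as lower. The same 6 genes were those whose groups did not overlap, again 2 higher and 4 lower, as 35.7% and 36.1% of all genes tested were. The 4 lower genes were all at least 2-fold lower, as were 9.22% of all genes tested, and PTGS1 was at least 2-fold higher, as were 7.67%. The median log2 fold change of the 8 was -0.61, against 0.00 over all genes tested. In these bulk libraries fewer cells that express a gene and less RNA of it per cell cannot be told apart.

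**Figure D1:**
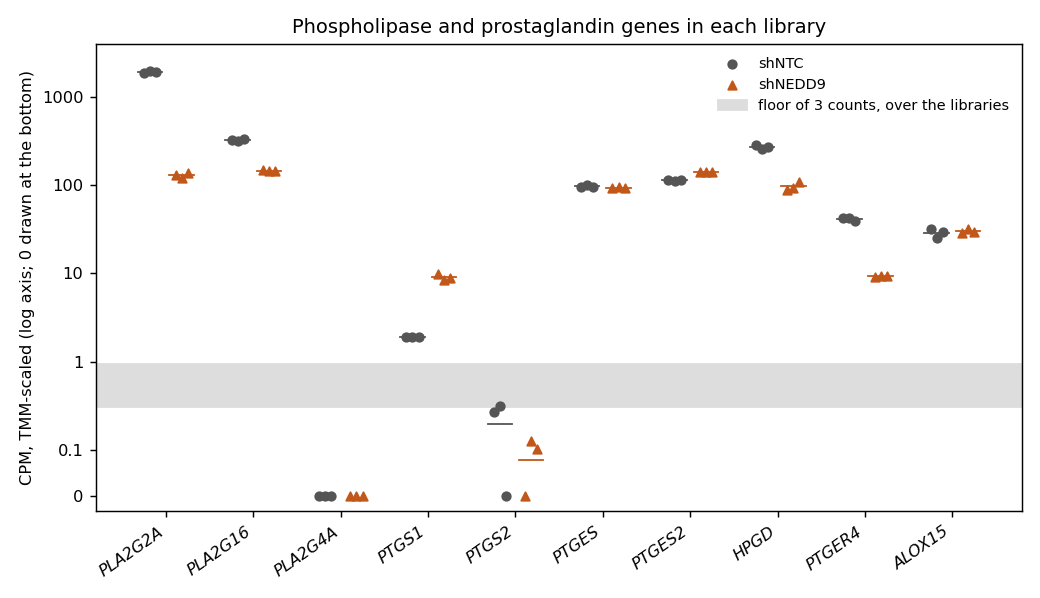
Level of each of the 10 genes in each library, in TMM-scaled CPM on a log axis, with the mean of each group as a line; the grey band spans the CPM that 3 counts stand for in the 6 libraries. PLA2G2A, PLA2G16, HPGD and PTGER4 sit lower in all 3 shNEDD9 libraries, PTGS1 and PTGES2 higher, and PTGS2 and PLA2G4A lie within the band, below it or at 0.

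Promoter sequences are shown for the 4 genes with the largest log2 fold changes, because they include the largest decrease and the largest increase of the set. Each runs 5′ to 3′ on the gene's own strand from 250 bases before to 50 after a RefSeq start site (GRCh38.p14), and for genes with several starts the one with most GENCODE 29 transcript starts within 50 bases was taken. Capitals mark matches, on either strand, to 4 motifs: the TATA box motif TATAAA, the GC box motif GGGCGG, the AP-1 motif TGANTCA and the ETS motif CCGGAAG.
PLA2G2A, chr1:19980385-19980684, minus strand: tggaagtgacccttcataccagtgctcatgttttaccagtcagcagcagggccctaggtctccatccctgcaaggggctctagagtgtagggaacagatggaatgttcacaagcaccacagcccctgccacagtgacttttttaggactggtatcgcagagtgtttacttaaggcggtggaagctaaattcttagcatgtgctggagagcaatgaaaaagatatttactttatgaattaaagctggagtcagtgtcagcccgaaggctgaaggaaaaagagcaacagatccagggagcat
PTGS1, chr9:122370283-122370582, plus strand: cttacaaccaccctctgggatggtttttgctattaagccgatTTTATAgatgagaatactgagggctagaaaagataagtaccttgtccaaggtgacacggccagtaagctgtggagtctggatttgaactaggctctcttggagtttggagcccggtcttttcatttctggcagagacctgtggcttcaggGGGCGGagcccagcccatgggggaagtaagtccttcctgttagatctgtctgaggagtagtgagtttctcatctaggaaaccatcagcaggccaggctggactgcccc
PTGER4, chr5:40679665-40679964, plus strand: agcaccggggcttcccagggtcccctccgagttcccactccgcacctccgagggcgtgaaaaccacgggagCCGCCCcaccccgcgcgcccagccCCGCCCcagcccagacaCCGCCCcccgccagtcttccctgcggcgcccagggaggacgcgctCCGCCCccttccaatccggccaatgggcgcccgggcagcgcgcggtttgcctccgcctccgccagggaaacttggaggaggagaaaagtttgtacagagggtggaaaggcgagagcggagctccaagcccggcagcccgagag
HPGD, chr4:174522439-174522738, minus strand: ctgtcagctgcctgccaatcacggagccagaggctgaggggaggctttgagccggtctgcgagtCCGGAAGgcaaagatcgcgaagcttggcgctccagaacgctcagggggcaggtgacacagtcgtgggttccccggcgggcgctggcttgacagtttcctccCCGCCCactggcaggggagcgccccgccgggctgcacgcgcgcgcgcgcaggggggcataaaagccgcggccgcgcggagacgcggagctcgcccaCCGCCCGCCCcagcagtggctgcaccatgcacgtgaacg
These windows were of unlike kinds. Those of PLA2G2A and PTGS1 held 47.7% and 50.7% G and C and only 3 and 4 CG pairs, whereas those of PTGER4 and HPGD held 72% and 71% and 30 and 34 CG pairs. The median over all 35116 RefSeq windows was 58.7% G and C. The PTGER4 window had 4 GC boxes and the HPGD window 3, of which a pair overlap, plus 1 ETS site. The PTGS1 window had 1 GC box, 58 bases before the start, and a TATA box match on the opposite strand 208 bases before it. The PLA2G2A window held none of the 4 motifs. GC boxes occur in 45.0% of all windows, TATAAA in 11.5%, CCGGAAG in 10.3% and TGANTCA in 7.71%. A match is a description of the letters and no evidence of binding. Of the 10 genes 9 had a window.

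PLA2G2A (ENSG00000188257, GRCh38 chromosome 1, 19975431 to 19980416, minus strand), which encodes a small secreted phospholipase A2 that also attacks bacterial membranes, stood furthest apart. It was at 1891, 1954 and 1923 CPM in the 3 shNTC libraries and at 130, 122 and 136 CPM in the 3 shNEDD9 libraries. Every shNEDD9 library was far below every shNTC library, and the spread within either group was small beside the gap. The group means were 1923 ± 31.5 and 129.5 ± 7.26 CPM (SD, n = 3 each), a 14.8-fold lower level (log2 fold change -3.88, SE 0.03) and a decrease of 93.3%. In shNTC PLA2G2A was the 20th most abundant of the 13958 tested genes by CPM. In shNEDD9 it was the 1847th, and its log2 fold change was the 50th lowest of all.

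PLA2G16 (ENSG00000176485, chromosome 11, 63573195 to 63616883, minus strand) encodes a membrane-bound enzyme that cuts phospholipids at either fatty acid position and is best known from fat cells. Its level was 322, 314 and 336 CPM in shNTC and 147, 144 and 145 CPM in shNEDD9. The shNEDD9 libraries nearly coincided, and all lay far below the lowest shNTC library. Their SD (1.07% of the mean) was below the 3.01% that counting alone gives, so it is no measure of precision. The level was 2.24-fold lower (324 ± 11.1 against 145.5 ± 1.56 CPM, SD, n = 3 each, log2 fold change -1.16, SE 0.04). PLA2G4A (ENSG00000116711, chromosome 1, 186828953 to 186988981, plus strand), the calcium-dependent cytosolic phospholipase that supplies arachidonic acid in many cells, had 0 counts in all 6 libraries. Over the 40827338 counts of the series this allows a level of up to 0.0735 CPM, a limit of counting error only. No comparison of the groups could be made for this gene.

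The makeup of the phospholipase A2 transcripts differed between the groups. A list of 34 genes of these enzymes and their relatives summed to 3278 ± 23.8 CPM in shNTC and 1196 ± 13.7 CPM in shNEDD9 (SD, n = 3 each). PLA2G2A made up 58.2% to 59.4% of that sum in the shNTC libraries and 10.3% to 11.4% in the shNEDD9 libraries. Without PLA2G2A the sums were 1356 ± 16.8 and 1066 ± 10.7 CPM (SD, n = 3 each), so most of the difference of the sums lay in this 1 gene. The ratio of PLA2G2A to PLA2G16, per length of their exons, was 10.6 to 11.5 in the 3 shNTC libraries and 1.57 to 1.74 in the 3 shNEDD9 libraries. Even in shNEDD9 PLA2G2A remained the more abundant of the pair by this measure.

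**Figure D2:**
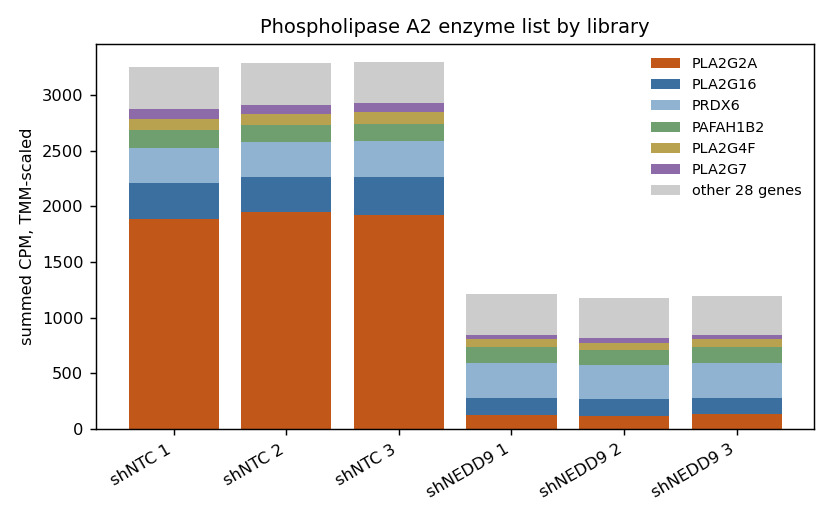
Summed TMM-scaled CPM of the 34 genes of the phospholipase A2 list in each of the 6 libraries, stacked by gene, with the 6 most abundant in shNTC shown apart. PLA2G2A fills 58.2% to 59.4% of each shNTC bar and 10.3% to 11.4% of each shNEDD9 bar, while the other segments differ much less.

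PLA2G2A lies in a cluster of secreted phospholipase genes on chromosome 1, and its 2 relatives in that cluster with enough counts to test had lower levels in shNEDD9. PLA2G5 (ENSG00000127472, plus strand), a secreted phospholipase gene, had 33, 16 and 38 counts in shNTC and 2, 8 and 11 in shNEDD9 (log2 fold change -2.51, SE 0.32). PLA2G2F, another, had 54, 32 and 38 counts in shNTC and 3, 7 and 6 in shNEDD9 (log2 fold change -3.40, SE 0.31). Per length of exon they were far scarcer than PLA2G2A even in shNTC, at 1.97 RPKM for PLA2G5 and 1.20 RPKM for PLA2G2F against 1141 RPKM (counts per kilobase of exon and 1000000 counts). Both reached the count minimum in shNTC only, so that, once tested, they had to be lower, and no p-value is given for them. The remaining cluster genes had 4 counts over all libraries (PLA2G2D) or 0 (PLA2G2E and PLA2G2C). On the other side of PLA2G2A the nearest tested gene, OTUD3, which encodes a deubiquitinase, fell by 1.13 on the log2 scale. Of the 10 nearest tested genes, 5 on each side, 6 were lower and 2 higher, with a median of -0.50. PLA2G5 and PLA2G2F are 2 of the 6. Within 2 Mb 17 of 34 tested genes were lower and 7 higher (median -0.23). Of all genes tested 35.9% were lower and 35.5% higher.

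PLA2G16 also lies beside a relative, RARRES3, a tumour suppressor gene of the same enzyme family. RARRES3 was at 17.1 ± 3.48 CPM in shNTC and 5.32 ± 0.07 CPM in shNEDD9 (SD, n = 3 each, log2 fold change -1.69, SE 0.15, edgeR adjusted p = 1.31e-27). The SD in shNEDD9 rests on only 32, 42 and 52 counts and is likewise no measure of precision. The family members HRASLS2 and HRASLS5, also on chromosome 11, were not tested for want of counts. All 5 nearest tested genes on the other side of PLA2G16 fell as well. They were ATL3 (-1.51), RTN3 (-0.84), C11orf95 (-1.57), SPINDOC (-0.98) and MARK2 (-1.29), each on the log2 scale. PLA2G16 at -1.16 lay within the range of these neighbours. Within 2 Mb 63 of 113 tested genes were lower and 28 higher (median -0.41), against 35.9% and 35.5% of all genes tested. Of the 10 nearest tested genes 7 were lower and 3 higher, the latter being SNHG1 (2.83), SLC3A2 (0.94) and WDR74 (0.75), which lie farthest out on the RARRES3 side. The lower level of PLA2G16 was thus shared by the nearest genes on both sides, and the part of its position in that level was not tested.

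**Figure D3:**
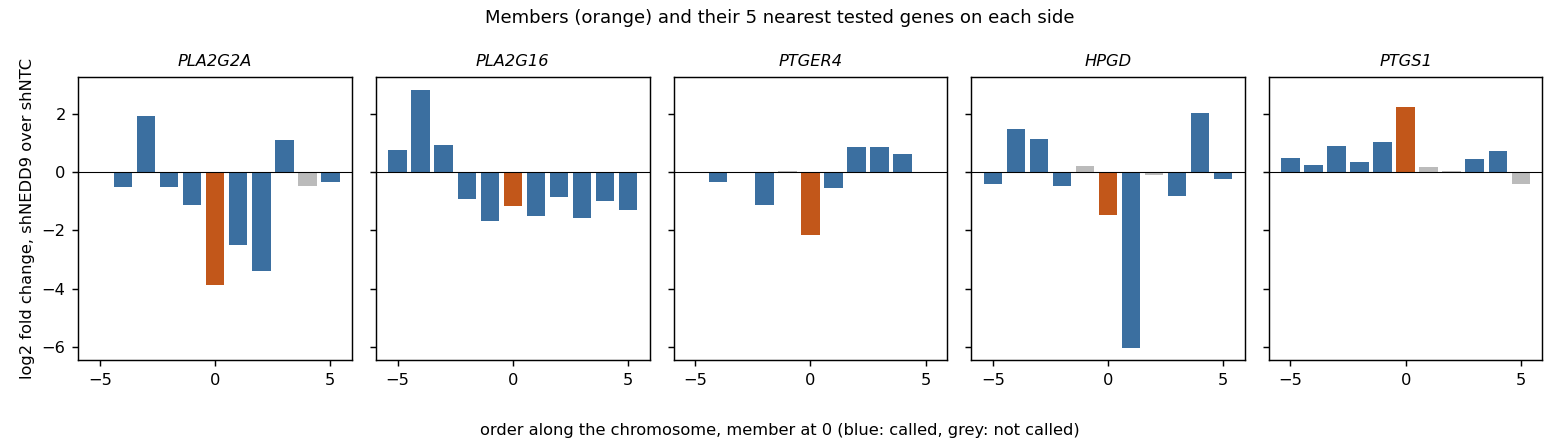
Log2 fold change (shNEDD9 over shNTC) of the 5 genes that differed most among the 10, in orange at position 0, and of the 5 nearest tested genes on each side in chromosome order, blue where called and grey where not. PLA2G2A stands among lower cluster genes, PLA2G16 amid a run of lower neighbours, and PTGS1 beside 5 modestly higher genes on 1 side, while PTGER4 and HPGD have neighbours in both directions; the longest bar beside HPGD is GLRA3, which had 3 counts in shNEDD9.

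The cyclooxygenase genes were both scarce. PTGS1 (ENSG00000095303, chromosome 9, 122370530 to 122395703, plus strand) had 14, 6 and 12 counts in shNTC, which is 1.88, 1.89 and 1.88 CPM. In shNEDD9 it had 58, 66 and 88 counts, or 9.73, 8.39 and 8.87 CPM. All 3 shNEDD9 libraries were above all shNTC libraries. The level was 4.71-fold higher (log2 fold change 2.24, SE 0.24), which put PTGS1 98th among the largest increases of all tested genes. The SD of the shNTC libraries (0.19% of their mean) was far below the 32.7% that counting alone gives at this level, so the small spread of these 3 values is no measure of their precision. When every library was thinned to the total of the smallest, the log2 fold change was 2.44. PTGS2 (ENSG00000073756, chromosome 1, 186671791 to 186680427, minus strand) had 2, 1 and 0 counts in shNTC and 0, 1 and 1 in shNEDD9, which is under the floor of 3 counts in each library. A difference was not detectable at this depth. The 5 nearest tested genes before PTGS1 were also higher, by 0.26 (NDUFA8) to 1.04 (MRRF, a mitochondrial translation factor gene) on the log2 scale. The log2 fold change of PTGS1 lay above the whole of that range. Of the 10 nearest 7 were higher and 0 lower, against 35.5% and 35.9% of all genes tested.

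The prostaglandin E synthase genes differed little. PTGES (ENSG00000148344, chromosome 9, 129738331 to 129753047, minus strand), the inducible membrane-bound synthase, was at 95.7, 100.9 and 96.1 CPM in shNTC and at 92.6, 95.9 and 92.7 CPM in shNEDD9. The highest shNEDD9 library reached past the lowest shNTC library, and the log2 fold change was -0.05 (SE 0.05). PTGES2 (ENSG00000148334, chromosome 9, 128120693 to 128128462, minus strand), a membrane-associated synthase expressed in most tissues, was at 114, 112 and 115 CPM in shNTC. In shNEDD9 it was at 140, 140 and 143 CPM, above every control library but only 1.24-fold higher (log2 fold change 0.31, SE 0.05). Per length of their exons PTGES was the more abundant of the pair in both groups, as the ratio of PTGES2 to PTGES was 0.729 ± 0.029 in shNTC and 0.938 ± 0.025 in shNEDD9 (SD, n = 3 each).

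HPGD (ENSG00000164120, chromosome 4, 174490177 to 174523154, minus strand), the dehydrogenase that inactivates prostaglandins, was at 284, 257 and 275 CPM in shNTC. In shNEDD9 it was at 89.3, 93.7 and 108.8 CPM. The groups were well apart, although HPGD varied more between the shNEDD9 libraries than counting gives (SD of 10.5% of the mean, against 3.68% from counting). The level was 2.79-fold lower (272 ± 13.7 against 97.3 ± 10.2 CPM, SD, n = 3 each, log2 fold change -1.48, SE 0.04). That SE comes from the edgeR fit, whose variance estimate draws on all genes, and not from the spread of HPGD alone. Per length of their exons, HPGD and PTGES were about equally abundant in shNTC, with a ratio of HPGD to PTGES of 0.87 to 1.02. In shNEDD9 the ratio was 0.33 to 0.40 in the 3 libraries. The degrading enzyme was thus the scarcer transcript of the pair there, through the lower level of HPGD and not a higher one of PTGES. The nearest tested gene beyond HPGD, GLRA3, a glycine receptor gene whose midpoint lies 226 kb from that of HPGD, had 161 counts in the shNTC libraries and 3 in the shNEDD9 libraries. With 3 counts in shNEDD9 GLRA3 reached the count minimum in shNTC only, so that, once tested, it had to be lower. The other neighbours went both ways. With GLRA3 included, 5 of the 10 nearest were lower and 3 higher, against 35.9% and 35.5% of all genes tested.

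PTGER4 (ENSG00000171522, chromosome 5, 40679498 to 40693735, plus strand), which encodes a prostaglandin E receptor that raises cyclic AMP, was at 43.0, 42.4 and 39.4 CPM in shNTC and at 9.06, 9.28 and 9.38 CPM in shNEDD9. The values within each group lay close together. In shNEDD9 their SD (1.75% of the mean) was far below the 11.9% that counting alone gives, so it is no measure of precision. The level was 4.48-fold lower (41.6 ± 1.92 against 9.24 ± 0.16 CPM, SD, n = 3 each, log2 fold change -2.16, SE 0.11), the 294th lowest log2 fold change of all tested genes. PTGER4 overlaps TTC33 on the opposite strand, and the strand setting of the counting is not given in the sources used here. TTC33 had 173 counts in shNTC and 246 in shNEDD9 and was not called (log2 fold change 0.03). The 10 nearest tested genes had a median of -0.02, with 3 lower and 3 higher, against 35.9% and 35.5% of all genes tested. The farthest of them lay 2.07 Mb away.

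ALOX15 (ENSG00000161905, chromosome 17, 4630902 to 4642294, minus strand), a lipoxygenase that oxidises arachidonic and linoleic acid, was at 32.1, 25.4 and 29.3 CPM in shNTC and at 28.9, 32.3 and 29.2 CPM in shNEDD9. The groups overlapped. The log2 fold change was 0.02 (SE 0.09), and its sign changed when single libraries were left out (-0.03 to 0.11). Its relatives ALOX12, ALOX12B and ALOX15B had too few counts to be tested.

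In RPKM, from the union of the exons in GENCODE 29, the order of the levels differed between the groups. In shNTC PLA2G2A led with 1141 ± 18.7 RPKM, followed by PLA2G16 (104 ± 3.55), PTGES (51.5 ± 1.51), HPGD (49.2 ± 2.48), PTGES2 (37.5 ± 0.45), PTGER4 (10.5 ± 0.49), ALOX15 (8.51 ± 0.99) and PTGS1 (0.325 ± 0.001, SD, n = 3 each). PTGES and HPGD overlapped in this order and the other neighbours did not. In shNEDD9 PLA2G2A led with 76.9 ± 4.31 RPKM, followed by PTGES (49.4 ± 0.98), PLA2G16 (46.7 ± 0.50), PTGES2 (46.3 ± 0.50), HPGD (17.6 ± 1.85), ALOX15 (8.85 ± 0.55), PTGER4 (2.33 ± 0.04) and PTGS1 (1.55 ± 0.12, SD, n = 3 each). PLA2G16 and PTGES2 overlapped there. The most and the least abundant of these genes, PLA2G2A and PTGS1, thus lay closer to the others in shNEDD9. Other pairs did not all draw closer, as PTGES and HPGD overlapped in shNTC and lay apart in shNEDD9.

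Beyond the 10 genes, 10 lists of the wider pathway held 167 other genes, of which 115 had enough counts to be tested. Of these 26 rose and 57 fell at an edgeR adjusted p under 0.05. The lists were chosen with earlier results of these data known, and most genes named below were picked for their large changes. Their counts and p-values are therefore a description only. Of all genes tested 35.5% rose and 35.9% fell (71.4% in either direction), the shares to hold beside each list below. A change of at least 2-fold was seen in 6 upward and 23 downward, against 7.67% and 9.22% of all genes tested. The median log2 fold change of the 115 was -0.22. Among the 115, 5 (PLA2G5, PLA2G2F, PLA2R1, PTGIS and CYP4F3) reached the count minimum in shNTC only and 1 (FABP5) in shNEDD9 only. All 5 are counted in the 57 and in the 23, and their direction was fixed once they were tested.

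**Figure D4:**
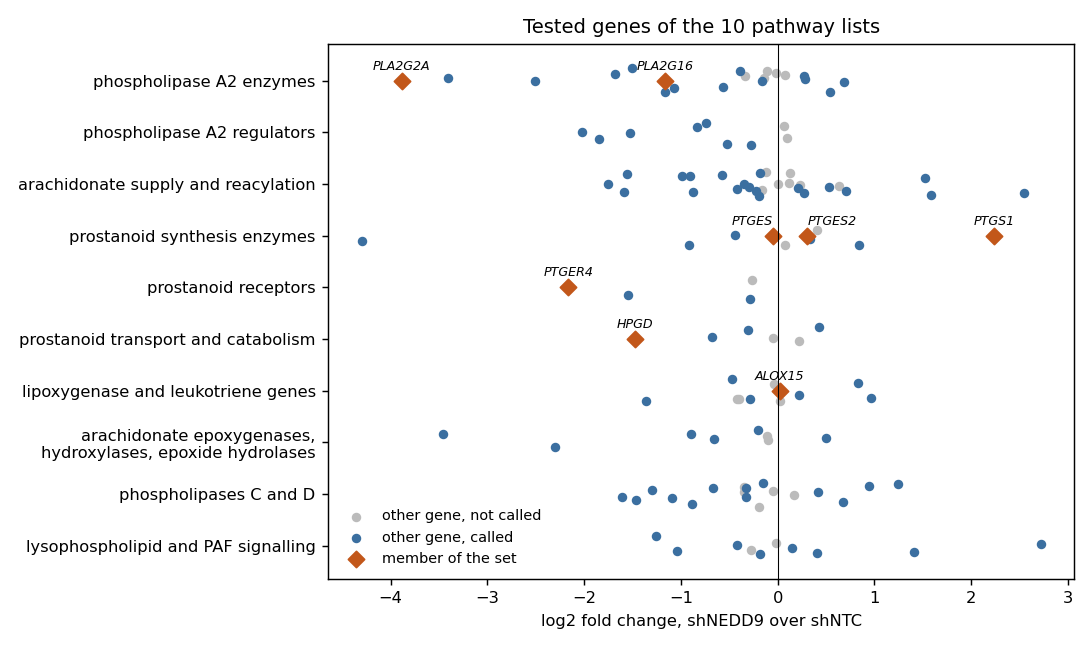
Log2 fold change (shNEDD9 over shNTC) of every tested gene of the 10 pathway lists, 1 point per gene, blue where called, grey where not, with the tested genes of the set as named orange diamonds. Points lie on both sides of 0 in most lists, and the phospholipase A2 regulators, the prostanoid receptors and the epoxygenases lie mostly to the left.

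Of 18 further tested phospholipase A2 enzyme genes 9 fell and 4 rose (median -0.25), where 35.9% and 35.5% of all genes tested did, and PLA2G5 and PLA2G2F are 2 of the 9. Besides PLA2G5, PLA2G2F and RARRES3, PLA2G4D, of the cytosolic group, had a log2 fold change of -1.51 (SE 0.26), and the log2 fold change of PLA2G4D was -2.28 when every library was thinned to the total of the smallest. Of 9 tested regulators 7 fell and 0 rose (median -0.74), against the same 35.9% and 35.5%, and PLA2R1 is 1 of the 7. ANXA1, which encodes an annexin known as an inhibitor of phospholipase A2, fell from 187 ± 2.35 to 52.1 ± 1.15 CPM (SD, n = 3 each, log2 fold change -1.85, SE 0.05, edgeR adjusted p = 2.08e-295). On the same scale ANXA3 fell by 2.02 (SE 0.09) and ANXA2 fell by 0.84 (SE 0.05). PLA2R1, the receptor gene for secreted phospholipases, had a log2 fold change of -1.52 (SE 0.35), but it reached the count minimum in shNTC only and could be called in that direction alone.

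Genes of arachidonate supply and reacylation split. Of 27 tested genes 7 rose and 13 fell (median -0.16). FADS2, the desaturase gene at the entry to arachidonic acid synthesis, rose from 26.3 ± 0.65 to 152.7 ± 1.27 CPM (SD, n = 3 each, log2 fold change 2.55, SE 0.06), and ACSL5, an acyl-CoA synthetase gene, rose by 1.58 (SE 0.06). MGLL, the lipase gene that frees arachidonic acid from its monoglyceride, fell from 275 ± 10.4 to 90.6 ± 3.04 CPM (SD, n = 3 each, log2 fold change -1.59, SE 0.04). ABHD4, a lipase gene of N-acyl phospholipids, fell by 1.75 (SE 0.06).

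Of 7 other tested prostanoid synthesis genes 2 rose and 3 fell (median 0.07), and PTGIS is 1 of the 3. AKR1C3, which encodes a reductase that makes prostaglandin F and also androgens, fell from 106 ± 2.76 to 56.5 ± 1.76 CPM (SD, n = 3 each, log2 fold change -0.91, SE 0.06, edgeR adjusted p = 1.35e-58), although reads may be shared with its close AKR1C relatives. FAM213B, a prostamide synthase gene, fell by 0.44 (SE 0.07), and the carbonyl reductase gene CBR3 rose by 0.84 (SE 0.12). PTGIS, the prostacyclin synthase gene, had 20, 7 and 21 counts in shNTC and 0, 3 and 0 in shNEDD9, a ratio of 22.1 in shNTC over shNEDD9 with a 95% exact counting interval of 7.11 to 110.7. It too reached the count minimum in shNTC only, so its direction was fixed once it was tested. The interval pools the counts of each group and is no test of that direction. All 3 of its shNEDD9 counts lay in replicate 2, without which that group had 0. Of 9 other receptor genes only 3 were tested. PTGFR, the prostaglandin F receptor gene, fell from 78.9 ± 4.12 to 26.4 ± 2.28 CPM (SD, n = 3 each, log2 fold change -1.55, SE 0.07, edgeR adjusted p = 4.36e-102), and PTGFRN, which encodes a regulator of that receptor, fell by 0.28 (SE 0.06). PTGER2, the other cyclic AMP-raising receptor gene for prostaglandin E, was at 8.41 ± 0.22 and 6.86 ± 1.05 CPM and was not called (edgeR adjusted p = 0.15). Of 5 other genes of transport and catabolism 1 rose and 2 fell. PTGR1, which acts on prostaglandins after HPGD, fell by 0.68 (SE 0.03), the exporter gene ABCC4 fell by 0.31 (SE 0.05), and ZADH2, a further prostaglandin reductase gene, rose by 0.42 (SE 0.08).

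Of 10 other tested lipoxygenase and leukotriene genes 3 rose and 3 fell (median -0.16). ALOX5, the leukotriene-forming lipoxygenase gene, fell from 6.71 ± 2.09 to 2.35 ± 0.44 CPM (SD, n = 3 each, log2 fold change -1.36, SE 0.24, edgeR adjusted p = 2.93e-08), while its partner ALOX5AP had 0 counts in all libraries. MGST2, a leukotriene C synthase gene, fell by 0.47 (SE 0.06). LTB4R, a leukotriene B receptor gene, rose by 0.97 (SE 0.15). The log2 fold change of LTB4R2, its neighbour, was 0.83 (SE 0.36, edgeR adjusted p = 0.0286), but the call was lost without shNTC replicate 3 (log2 fold change 0.45, edgeR adjusted p = 0.321) and without shNEDD9 replicate 1 (0.48, edgeR adjusted p = 0.305), and the 2 receptor genes may share reads. Of 8 tested epoxygenase, hydroxylase and epoxide hydrolase genes 5 fell and 1 rose (median -0.43), and CYP4F3 is 1 of the 5. CYP4F12, of a family of near-identical genes that may share reads, fell by 2.30 (SE 0.15). CYP4F3, the leukotriene B hydroxylase gene of that family, had a log2 fold change of -3.46 (SE 0.31), but it reached the count minimum in shNTC only, so its direction was fixed once it was tested. The epoxygenase gene CYP2J2 fell by 0.89 (SE 0.07) and the hydroxylase gene CYP2U1 fell by 0.65 (SE 0.08).

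Of 18 tested phospholipase C and D genes 4 rose and 9 fell (median -0.33). PLCB3, a phospholipase C gene downstream of G protein-coupled receptors, fell from 346 ± 20.3 to 112.7 ± 0.81 CPM (SD, n = 3 each, log2 fold change -1.61, SE 0.04). PLCD1 fell by 1.46 (SE 0.15) and PLCH2 fell by 1.29 (SE 0.22), whereas PLCB2 rose by 1.24 (SE 0.18). Of 10 tested genes of lysophospholipid and platelet-activating factor signalling 4 rose and 4 fell (median -0.10). The lysophosphatidic acid receptor gene LPAR3 rose from 1.79 ± 0.40 to 11.2 ± 1.34 CPM (SD, n = 3 each, log2 fold change 2.72, SE 0.23, edgeR adjusted p = 1.65e-31), and LPAR1, a receptor gene for the same lipid, fell by 1.26 (SE 0.23). PLPP3, a lipid phosphatase gene that degrades this lipid, rose by 1.41 (SE 0.09), and LIPH, a phospholipase gene that makes it, fell by 1.04 (SE 0.09).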

How the data were processed

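RNA of 3 shNTC and 3 shNEDD9 VCaP libraries was measured. Per the labels' protocols, RNA was purified on columns and made into strand-marking total RNA libraries. The authors deposited whole-number counts of reads per gene, not normalised. Tools listed in the submitters' processing notes are STAR 2.5.3a, Subread 1.6.2, featureCounts, cutadapt 1.9 and FastQC 0.11.5, with the builds hg19 and GRCh38 and no roles. The annotation and strand setting are not given in the sources used here. All 58735 identifiers occur in GENCODE 29 (GRCh38), which gave coordinates and exon lengths. 1 row without an identifier was left out.

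Groups were compared with edgeR 4.0.16 (quasi-likelihood test, TMM factors, R 4.3.3) on all 13958 genes that passed filterByExpr (minimum count 10), with Benjamini-Hochberg adjustment over them and a threshold of 0.05. SE is the absolute log2 fold change before moderation over the square root of F. The floor of detection was 3 counts, 0.303 to 0.932 CPM per library. Intervals and floors cover counting error only. On simulated data for this comparison (13735 genes) the test recovered 98% of genes changed 2-fold and 54% of those changed 1.25-fold, with 5 false calls among 173. Only 50 genes were changed at each fold, all of them well counted, with the same dispersion for every gene. These rates therefore do not carry over to scarce genes or to data in which most genes were called.

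The members and lists were chosen with earlier results of these data known. Named genes were the members, NEDD9 and, from each of 10 lists, up to 4 called genes with the largest absolute log2 fold change at a mean of at least 1 CPM, plus neighbours for their position. PTGER2, ALOX5AP, 3 lipoxygenase relatives and markers were added after their values were seen. The fit was repeated with DESeq2 1.42.0, with voom (limma 3.58.1), with a replicate block, with other scaling (RLE, upper-quartile, totals only), with other filters (none, or a mean of 1 CPM), on libraries thinned to 1 total, and without each library. Libraries of a group were not copies of one another, but they differed little more than counting gives (chi-square per degree of freedom 1.14 to 1.20 between pairs). The variation between libraries beyond counting, as fitted by edgeR over all genes, was 1.65%. These values cannot tell separate cultures from technical repeats.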

Additional observations from a re-analysis of the deposited data

How the results depend on the processing

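Of the 37 named pathway genes outside the 10, 35 kept their direction and their side of the threshold under all 15 alternatives. PTGIS did so under the 14 that gave it a value, and neither PTGIS nor LTB4R2 had enough counts to test after thinning. The call on the log2 fold change of LTB4R2 was lost without shNTC replicate 3, without shNEDD9 replicate 1, with DESeq2 (0.87, adjusted p = 0.141) and, in edgeR, without a count filter (0.86, adjusted p = 0.0569). The log2 fold change of PLA2G2A ranged from -3.93 to -3.84 with 1 library left out and that of PTGER4 from -2.21 to -2.12. With 1 library left out, pathway genes called higher numbered 24 to 28 and those called lower 56 to 59. With DESeq2 2 further phospholipase A2 enzyme genes were called higher instead of 4, and 0 epoxygenase, hydroxylase and epoxide hydrolase genes instead of 1; that count was also 0 after thinning, and 0 to 1 with 1 library left out (0 without shNTC replicate 3 or shNEDD9 replicate 1). The cause was not tested. No pairing by replicate number was detectable, as deviations of same-numbered libraries correlated at -0.05 to 0.01. Libraries of a group differed little more than counting gives, so these correlations cannot exclude a pairing. With the replicate block 26 pathway genes were called higher and 56 lower, against 26 and 57 without it. Depth limits PTGS2, PLA2G4A and the 52 other pathway genes that had too few counts to test.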
